A study of Mus musculus with 6 samples.

Results

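A set of 10 genes of iron handling were read in mouse liver with and without LKB1, the serine/threonine kinase encoded by Stk11 that phosphorylates AMPK and related kinases. They are the hepcidin genes Hamp and Hamp2, transferrin (Trf), the transferrin receptors Tfrc and Tfr2, the iron exporter ferroportin (Slc40a1), the ferritin subunits Fth1 and Ftl1, and the hepcidin regulators Hfe and Bmp6. They were chosen by symbol, and all 10 were found among the 55450 genes of the deposited count table. Each of the 10 passed the filter on low counts.

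Knockout mice (3) carried LKB1 fl/fl alleles and WT mice (3) were wild type, all labelled as strain C57BL/J and aged 10 weeks at harvest. Every mouse, the WT mice included, had been given AAV8 Cre at 6 weeks of age, 4 weeks before the liver was taken. AAV8 is an adeno-associated virus serotype used to deliver genes to hepatocytes, and Cre removes DNA between loxP sites. The promoter that drives Cre is not given in the sources used here, and the tissue was a piece of whole left lobe, so the RNA of every cell type of the liver was measured together. The comparison asks which of these transcripts differ between knockout and WT liver.

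Hepcidin is a peptide hormone made by hepatocytes that binds ferroportin and leads to its breakdown, so that less iron leaves cells for the plasma. Its transcription is raised by BMP6 and BMP2, which liver endothelial cells secrete and which signal through SMAD proteins, with hemojuvelin, HFE and TFR2 as further inputs, and by interleukin-6 through STAT3. Inside the cell, iron regulatory proteins bind hairpins called iron-responsive elements when iron is scarce. Binding in the 3′ untranslated region of Tfrc protects that mRNA from decay, and binding in the 5′ untranslated region of the ferritin and ferroportin mRNAs blocks their translation, which a count of mRNA does not show.

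The stretches just before the transcription starts of the 2 hepcidin genes are shown because the log2 fold changes of these genes had the largest SEs of the 10. Each is 130 bases long, from RefSeq on GRCm38.p6, minus strand, chr7:30944030-30944159 for Hamp and chr7:30924182-30924311 for Hamp2. The GENCODE M21 span of Hamp2 begins further upstream, at 30924681, so the Hamp2 window lies inside it and precedes the RefSeq start only. Capitals mark the motif GGCGCC, a core of known BMP-responsive elements, and the motif TTCNNNGAA, the form bound by STAT factors, or the bases of Hamp2 aligned with them.
Hamp: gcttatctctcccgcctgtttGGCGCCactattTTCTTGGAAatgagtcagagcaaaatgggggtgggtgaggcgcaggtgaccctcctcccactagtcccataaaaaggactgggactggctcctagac
Hamp2: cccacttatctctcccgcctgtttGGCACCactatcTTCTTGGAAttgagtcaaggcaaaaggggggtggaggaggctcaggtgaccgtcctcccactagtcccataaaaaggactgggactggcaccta
The 2 windows were identical at 115 of 133 aligned positions, 86.5%. The element GGCGCC, whose first base lies 109 bases before the start of Hamp, reads GGCACC in Hamp2, a substitution G4A counted from 1 at the 5′ end of the element. The element TTCTTGGAA was the same in both genes, with its first base 97 bases before the start of Hamp and 94 before that of Hamp2. Both motifs read the same on either strand and they do not overlap here. In the 250 bases before the start, GGCGCC was present in 9.59% of 32851 RefSeq starts, TTCNNNGAA in 7.02% and both in 0.368%. Of the 8 members in that table, GGCGCC was also present before 1 of the 2 starts listed for Tfrc, and TTCNNNGAA before no other member. Trf and Slc40a1 were the other two members.

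Iron-responsive elements are shown because the members that carry them differ in how their mRNA can respond. A script searched the principal GENCODE M21 transcript of each member, on the sense strand, for a C, any 5 bases, the loop CAGTGN and any 5 bases, with all 5 bases before the loop pairing with the 5 after it, G-T pairs allowed. Each site is printed as 30 bases of the transcript, with the loop in capitals.
Tfrc 3′ site 1: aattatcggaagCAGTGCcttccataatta
Tfrc 3′ site 2: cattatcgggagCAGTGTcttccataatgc
Tfrc 3′ site 3: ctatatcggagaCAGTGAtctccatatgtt
Tfrc 3′ site 4: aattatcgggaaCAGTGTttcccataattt
Fth1 5′ site: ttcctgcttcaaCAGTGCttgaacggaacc
Ftl1 5′ site: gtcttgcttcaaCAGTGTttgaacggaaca
Slc40a1 5′ site: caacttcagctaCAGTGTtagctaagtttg
Tfrc held 4 such sites in its 3′ untranslated region, and Fth1, Ftl1 and Slc40a1 held 1 each in the 5′ untranslated region. The other 6 members held none. Of 21901 protein-coding genes searched over all their coding transcripts, 0.142% had a match in a 5′ and 0.589% in a 3′ untranslated region.

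The libraries held between 47659122 and 56147667 counts. Values are given as CPM, a gene's counts relative to the size of its library, scaled by edgeR's TMM factors. Stk11, the targeted gene, was at 22.1, 14.4 and 11.4 CPM in knockout 1 to 3 against 64.2 to 69.7 CPM in WT and fell by 2.06 on the log2 scale (SE 0.247, adjusted p = 0.0167). Replicate 1 of each group had at least 29243 counts of Xist, the RNA of the inactive X chromosome, and at most 6 counts of 4 Y-linked genes. The other 4 libraries had at most 16 counts of Xist and at least 6146 of the Y-linked genes. The labels give no sex. Results are therefore also given for the 4 with Y-linked counts (the Y libraries, 2 against 2) and for the other two (the Xist pair, 1 against 1), which have no replicate and no test. The ratio of knockout to WT for Stk11 was 0.194 in the former and 0.336 in the Xist pair.

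In the comparison of all 6 libraries, the transferrin receptor Tfrc and the MHC class I-like protein gene Hfe rose in knockout, and no other member reached an adjusted p of 0.05 by the quasi-likelihood test of edgeR. Tfrc was 4.04-fold higher and Hfe 1.63-fold higher. Those 2 of 10 stand beside 3.37% of 14539 genes called in either direction, 2.15% called as higher and 1.22% called as lower. Fth1 and Ftl1 were also higher in every knockout library than in every WT library and Trf was lower in every one, so that 5 of the 10 members did not overlap between groups, against 32.4% of all tested genes. The median log2 fold change was 0.24 over the members and 0.01 over all genes tested. In the Y libraries 6 members rose, the 2 hepcidin genes and the 2 ferritin genes together with Tfrc and Hfe, and 0 fell. In that fit 17.2% of 14546 genes were called as higher and 16.1% as lower. Both calls of the 6-library test were near the threshold, and both were lost when any 1 of knockout 2, knockout 3 or any WT library was left out. DESeq2 called 4 members as higher (Tfrc, Hfe, Fth1 and Ftl1) among 8.74% of genes, limma voom called Tfrc alone among 1.75%, and edgeR with DESeq2's size factors called Tfrc alone among 2.05%.

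**Figure D1:**
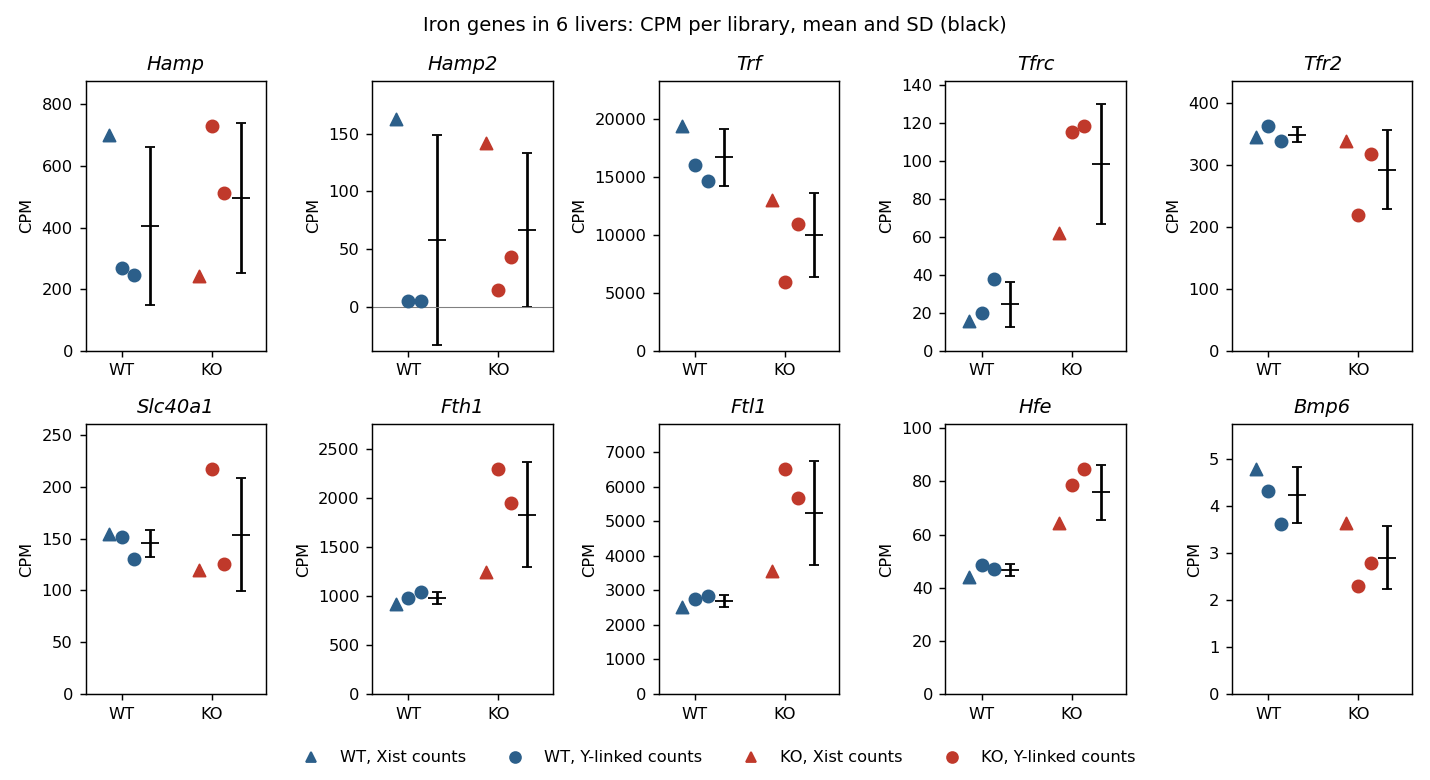
CPM of each of the 10 genes (vertical axis, linear, 1 panel per gene) in the 3 WT (blue) and 3 knockout (KO, red) libraries, with triangles for the Xist libraries, circles for those with Y-linked counts and the mean and SD in black. Tfrc, Fth1, Ftl1 and Hfe are higher and Trf is lower in all 3 knockout libraries, while for Hamp the triangles and the circles move in opposite directions.

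Hamp (ENSMUSG00000050440.8, GRCm38 chromosome 7, 30942368 to 30944032, minus strand), which encodes hepcidin, had 244, 730 and 511 CPM in knockout 1 to 3 and 701, 267 and 245 CPM in WT 1 to 3. The groups overlapped, and the direction differed between the library types: both knockout Y libraries lay above both WT libraries of that type, whereas knockout 1 lay below WT 1. Over 6 libraries the mean was 495 ± 243 CPM in knockout against 405 ± 257 CPM in WT (SD, n = 3 each), and the log2 fold change was 0.29 (SE 0.532, adjusted p = 0.757). In the Y libraries Hamp rose 2.42-fold, by 1.27 on the log2 scale (SE 0.218, adjusted p = 0.0105 in edgeR). In the Xist pair the ratio of knockout to WT was 0.348. The difference between these 2 log2 fold changes was -2.80 (SE 0.386, adjusted p = 0.0279, edgeR interaction term over 14539 genes). Hamp was the only member of 10 whose interaction passed the threshold, against 2.9% of all genes tested. The Xist side of that test is 1 library of each group. The spread comes from the 4 Y libraries and from values shared over all genes tested, so the p-value assumes that livers of the other type vary alike. Knockout 1 also stood apart in other ways: across genes its log2 CPM correlated most with WT 1 (Pearson r = 0.968, against 0.943 and 0.959 with knockout 2 and 3) and it kept the most Stk11. The library type cannot be told apart from these single libraries.

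Hamp2 (ENSMUSG00000056978.8, chromosome 7, 30922372 to 30924681, minus strand), the second hepcidin gene of the mouse, had 142, 14.2 and 42.8 CPM in knockout 1 to 3 and 163, 5.21 and 5.20 CPM in WT 1 to 3. The 2 Xist libraries were far above the other 4 whatever the genotype. WT 1 had 30.8 times the mean of WT 2 and WT 3 for Hamp2 and 2.74 times for Hamp, each a ratio of 1 library to 2 and with no test. Over all 6 libraries the log2 fold change of Hamp2 was 0.20 (SE 1.41, adjusted p = 0.942). In the Y libraries Hamp2 rose by 2.44 on the log2 scale (SE 0.515, adjusted p = 0.0191), and both knockout libraries exceeded both WT libraries. In the Xist pair the ratio of knockout to WT was 0.869. The interaction for Hamp2, -2.65 (SE 0.836), had an adjusted p-value of 0.17.

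Hamp2 made up 36.8% of the summed hepcidin counts in knockout 1 (95% exact Clopper-Pearson interval 36.1% to 37.4%) and 18.9% in WT 1 (18.5% to 19.2%). The share was 1.91% in WT 2, 2.08% in WT 3, 1.90% in knockout 2 and 7.73% in knockout 3. The intervals cover counting error only. Knockout 2 and WT 2 thus had nearly the same share although their Hamp levels differed, and knockout 3 had the highest share of the 4 Y libraries. Between groups the mean share was 15.5% ± 18.7 in knockout and 7.62% ± 9.75 in WT (SD, n = 3 each), a difference smaller than the spread (exact two-sided permutation p = 0.7, where 0.1 is the smallest p that 3 against 3 allows).

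**Figure D2:**
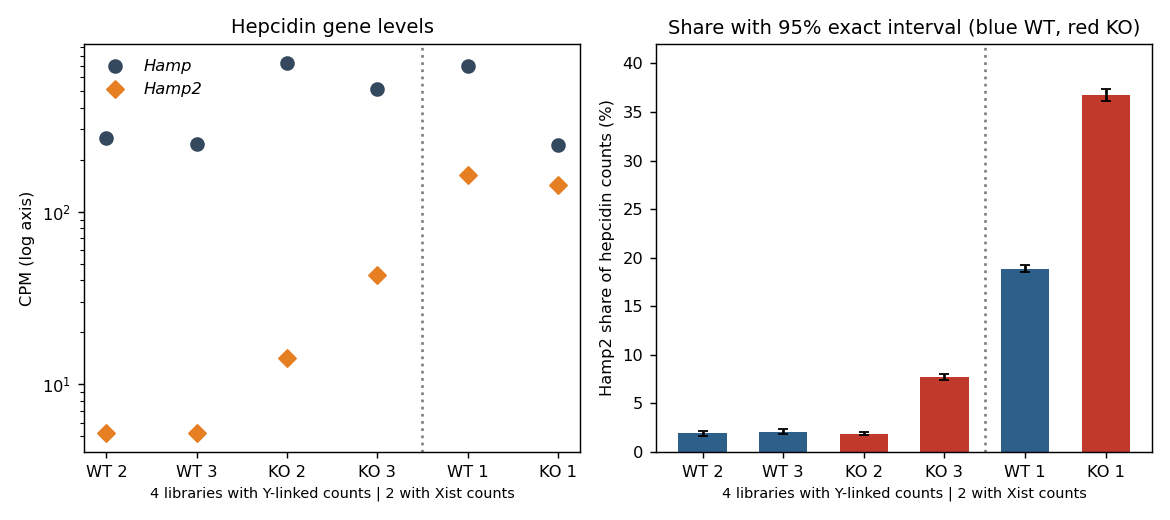
Left, CPM of Hamp (dark circles) and Hamp2 (orange diamonds) in each library on a log axis, and right, the percentage of hepcidin counts that came from Hamp2 with its 95% exact binomial interval (bars from 0, blue WT, red KO). The dotted line parts the 4 Y libraries from the 2 with Xist counts, which have the highest Hamp2 shares, 18.9% and 36.8%.

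The principal transcripts of Hamp (410 nt) and Hamp2 (437 nt) were 93% identical over 417 aligned positions, and their longest identical run, 87 nt, is longer than a 76 nt read. A read within that run could therefore not be placed by sequence alone, unless its mate covered a difference. The split of such read pairs between both genes rests on how RSEM divided them, and their number was not counted. With the counts of both genes summed, the log2 fold change over 6 libraries was 0.28 (adjusted p = 0.763). The gene Gm44662 on the opposite strand overlaps both and had at most 2 counts in any library.

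By the rule fixed for likeness, the 3 tested genes whose log2 CPM followed Hamp most closely over the 6 libraries were Sept2 (Pearson r = 0.995), St3gal5 (0.992) and Pcif1 (0.988). For Hamp2 they were Gcnt1 (0.998), Senp7 (0.993) and Cyp2b9 (0.990), a cytochrome P450 gene. Cyp2b9 had 491 and 469 CPM in the knockout and WT Xist libraries, 2.34 and 8.62 CPM in knockout 2 and 3, and at most 0.0964 CPM in WT 2 and 3. These coefficients describe 6 libraries searched over 14539 genes and carry no test.

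Hfe (ENSMUSG00000006611.15, chromosome 13, 23702034 to 23710854, minus strand), whose protein binds the transferrin receptor and takes part in hepcidin control, was at 64.3, 78.6 and 84.6 CPM in knockout 1 to 3 and 44.1, 48.5 and 47.2 CPM in WT 1 to 3. Every knockout library lay above every WT library, and knockout 1 was the lowest of its group. The mean was 75.8 ± 10.4 CPM in knockout against 46.6 ± 2.27 CPM in WT (SD, n = 3 each). Hfe rose by 0.70 on the log2 scale (SE 0.138, adjusted p = 0.047). It was 1.70-fold higher in the Y libraries (adjusted p = 0.00535 in that edgeR fit) and 1.46-fold higher in the Xist pair.

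Tfr2 (ENSMUSG00000029716.13, chromosome 5, 137569840 to 137587481, plus strand), a transferrin receptor of hepatocytes that acts as an iron sensor, was at 340, 220 and 318 CPM in knockout 1 to 3. WT libraries had 346, 364 and 340 CPM. Knockout 2 stood lowest and knockout 1 touched the WT range. The log2 fold change was -0.26 (SE 0.2, adjusted p = 0.447), and it was negative in every alternative that was tried.

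Bmp6 (ENSMUSG00000039004.6, chromosome 13, 38345107 to 38500302, plus strand), the endothelial ligand that raises hepcidin, was low in every library, at 3.64, 2.30 and 2.78 CPM in knockout and 4.79, 4.32 and 3.61 CPM in WT. These values come from 128 to 243 counts per library. Knockout 1 exceeded WT 3 by a small margin, so the groups overlapped. The log2 fold change was -0.54 (SE 0.238, adjusted p = 0.202), and Bmp6 passed only with knockout 1 left out (adjusted p = 0.0457). In that fit 14.2% of 14833 genes were called as lower. Bmp6 overlaps Txndc5 on the opposite strand, which had 5044 to 9825 counts, and the use of strand in counting is not given in the sources used here.

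Markers of endothelial cells were lower beside Bmp6. All 10 endothelial markers had a negative log2 fold change (median -0.75, 0 of 10 past the threshold), and their summed level was 116 to 198 CPM in knockout against 238 to 327 CPM in WT. Of the other lists, stellate markers had 6 of 6 negative values (median -0.41) and lymphocyte markers 5 of 6 (median -0.80). Kupffer and macrophage markers had 6 of 9 (median -0.38) and bile duct markers 3 of 6 (median -0.002). None of these passed the threshold. In bulk tissue fewer cells of a type and less RNA per cell cannot be told apart. The part of the endothelial markers in the Bmp6 values was not tested.

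Trf (ENSMUSG00000032554.15, chromosome 9, 103204001 to 103230444, minus strand) encodes transferrin, the plasma protein that carries iron to cells. It was at 12985, 5944 and 10979 CPM in knockout 1 to 3 and 19403, 15993 and 14681 CPM in WT 1 to 3. All knockout libraries lay below all WT libraries, and knockout 2 was the lowest. The log2 fold change was -0.74 (SE 0.362, adjusted p = 0.242), and the ratio of means was 0.552 in the Y libraries and 0.669 in the Xist pair. No alternative called it, with adjusted p-values from 0.0721 to 0.443. Beside it, 6 of 7 hepatocyte markers had a negative log2 fold change, 0 of them past the threshold, and the groups overlapped for Serpina1c and Asgr1. The seventh, the tyrosine aminotransferase gene Tat, rose 3.63-fold without overlap (adjusted p = 0.0344). The summed level of the 7 was 22139 to 70202 CPM in knockout against 84997 to 119994 CPM in WT, of which Alb, the albumin gene, made up most of the WT sum, with means of 26160 ± 21422 CPM in knockout against 74222 ± 19628 CPM in WT (SD, n = 3 each). The part of these markers in the Trf values was not tested.

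Tfrc (ENSMUSG00000022797.16, chromosome 16, 32608920 to 32632794, plus strand), the receptor through which most cells take up iron-loaded transferrin, showed the largest change of the 10 genes over all 6 libraries. Its levels were 61.8, 115 and 118 CPM in knockout 1 to 3, and 15.7, 19.7 and 37.8 CPM in WT 1 to 3. The lowest knockout library lay above the highest WT library. The mean was 98.5 ± 31.8 CPM in knockout against 24.4 ± 11.8 CPM in WT (SD, n = 3 each). Tfrc rose by 2.01 on the log2 scale (SE 0.398, adjusted p = 0.048). The ratio of knockout to WT was 4.05 in the Y libraries (adjusted p = 0.00726 in that edgeR fit) and 3.92 in the Xist pair, and the interaction was -0.04 (SE 0.511, adjusted p = 0.971). Its direction was the same in all 14 alternatives, and 9 of them called it.

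Erythroid markers were read in the same libraries, since erythroid precursors are known to carry much Tfrc. The summed level of 10 erythroid markers was 257, 44.0 and 60.6 CPM in knockout 1 to 3 and 189, 433 and 312 CPM in WT 1 to 3. Knockout 2 and 3, where Tfrc was highest, had the lowest erythroid sums of all 6 libraries, and these sums consist almost wholly of Alas2 and the globin genes. Of the 6 markers tested, 5 had a negative and 1 a positive log2 fold change, and 0 passed. The positive one, the erythroid transcription factor gene Klf1, was at 1.78, 1.82 and 2.02 CPM in knockout 1 to 3 against 0.868 to 1.36 CPM in WT, without overlap (log2 fold change 0.67, adjusted p = 0.182). The red cell membrane genes Slc4a1 and Epb42 were at most 0.103 CPM in any library, and Rhag had 0 counts in all of them. The part of erythroid cells in the Tfrc values was not tested.

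**Figure D3:**
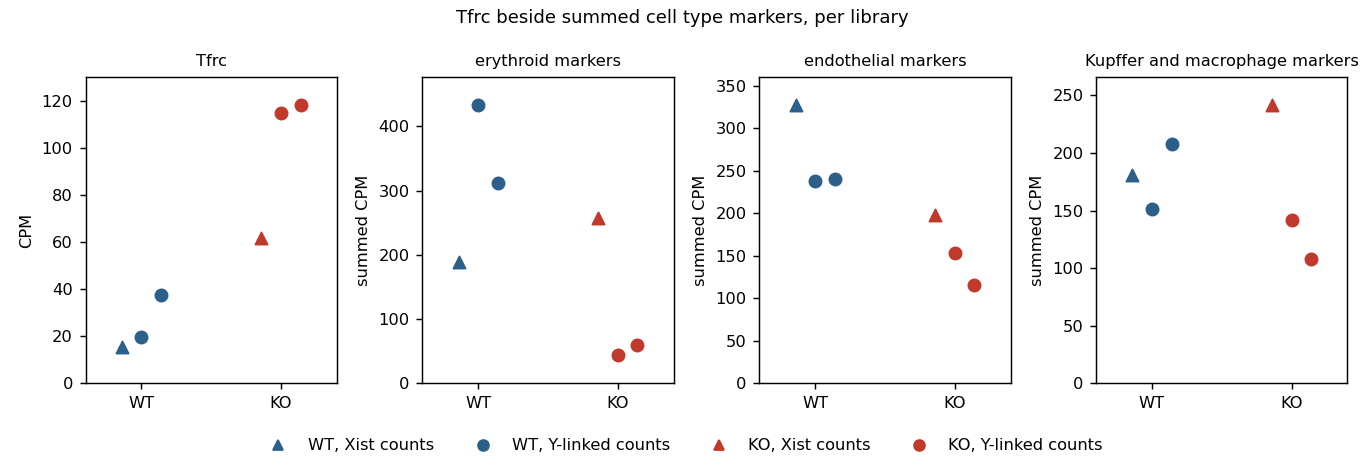
CPM of Tfrc (left) and the summed CPM of the marker lists for erythroid, endothelial, and Kupffer and macrophage cells in each library (linear axes from 0, blue WT, red KO, triangles for Xist libraries). Tfrc is higher in all 3 knockout libraries, endothelial sums are lower in all 3 (116 to 198 against 238 to 327 CPM), and the erythroid and Kupffer sums overlap between groups.

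The ferritin genes were higher together. Fth1 (ENSMUSG00000024661.7, chromosome 19, 9980598 to 9985098, plus strand), the heavy subunit that oxidises iron for storage, was at 1247, 2295 and 1953 CPM in knockout 1 to 3 and 915, 978 and 1037 CPM in WT 1 to 3. Ftl1 (ENSMUSG00000050708.16, chromosome 7, 45457944 to 45459884, minus strand), the light subunit, was at 3572, 6516 and 5667 CPM in knockout and 2507, 2765 and 2835 CPM in WT. For both genes the groups did not overlap, and knockout 1 was the lowest knockout library.

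Over all 6 libraries neither ferritin gene passed the threshold. The log2 fold change was 0.91 for Fth1 (SE 0.264, adjusted p = 0.0954) and 0.96 for Ftl1 (SE 0.283, adjusted p = 0.0973). In the Y libraries both rose, by 1.07 for Fth1 (SE 0.204, adjusted p = 0.0141) and 1.12 for Ftl1 (SE 0.241, adjusted p = 0.0205) on the log2 scale. In the Xist pair the ratios of knockout to WT were 1.36 and 1.42. Both also passed over 5 libraries with knockout 1 left out (adjusted p = 0.00685 and 0.00916), where 16% of 14833 genes were called as higher. The interactions of -0.63 and -0.61 had adjusted p-values of 0.363 and 0.445. The SDs of the knockout group, 535 CPM for Fth1 and 1515 CPM for Ftl1, were larger than those of WT, 60.7 and 173 CPM.

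Summed over both subunits, ferritin was at 7084 ± 2050 CPM in knockout against 3679 ± 231 CPM in WT (SD, n = 3 each), a ratio of 1.93 (exact two-sided permutation p = 0.1 on the log2 scale, the smallest that 3 against 3 allows). The ratio of Ftl1 to Fth1 counts varied far less than either gene, at 2.84 to 2.90 in knockout against 2.73 to 2.83 in WT, and the 2 ranges did not overlap (exact permutation p = 0.1). The Ftl1 transcript shares 99.6% identity over 910 positions with Ftl1-ps1, which had 1449 to 4222 counts against 127184 to 361924 for Ftl1. Adding the pseudogene counts left the log2 difference of summed ferritin at 0.90.

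Slc40a1 (ENSMUSG00000025993.10, chromosome 1, 45908068 to 45926523, minus strand), the only known cellular iron exporter and the protein that hepcidin binds, was at 120, 217 and 126 CPM in knockout 1 to 3 and 155, 152 and 130 CPM in WT 1 to 3. Knockout 2 stood above all other libraries, and knockout 1 and 3 lay below all WT libraries. The log2 fold change was 0.08 (SE 0.253, adjusted p = 0.859), and no alternative called it. The summed Kupffer and macrophage markers, of cells that also use this exporter, overlapped between groups at 108 to 242 CPM in knockout against 151 to 208 CPM in WT.

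**Figure D4:**
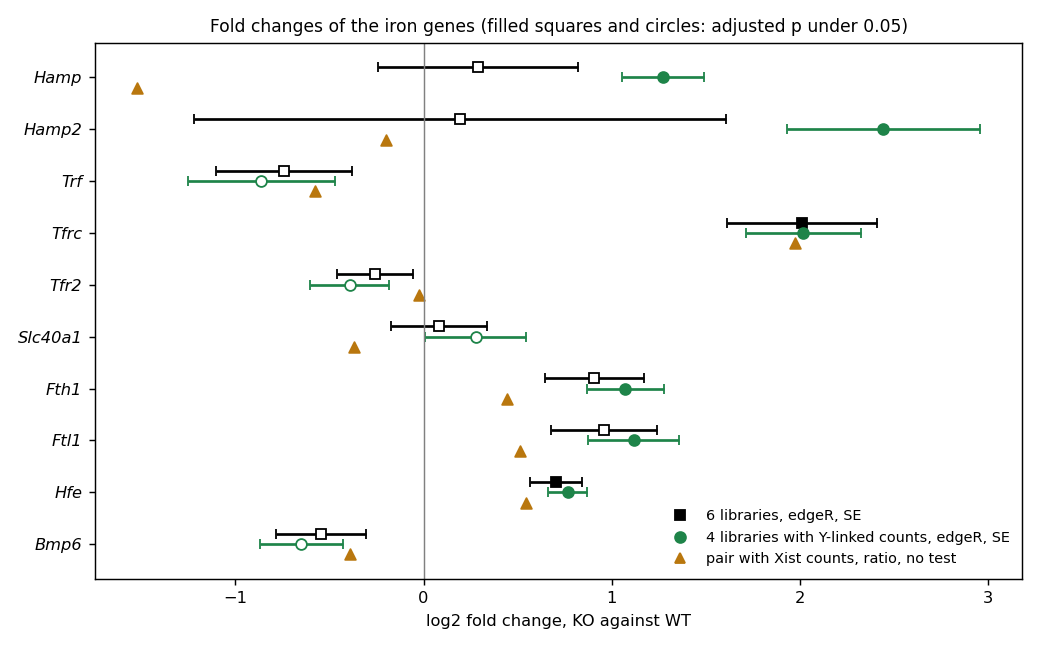
Log2 fold change of knockout against WT (horizontal axis) for each of the 10 genes over all 6 libraries (squares) and over the 4 Y libraries (circles), with SE bars from edgeR and filled symbols at an adjusted p under 0.05, and the log2 ratio in the Xist pair (triangles, no error). The 3 estimates nearly coincide for Tfrc (2.01, 2.02 and 1.97) and lie far apart for Hamp (0.29, 1.27 and -1.52).

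Levels can be compared between genes only per length, and CPM was divided by the length of the principal transcript in kb. In WT the order of mean CPM per kb was Trf (6493 ± 948), Ftl1 (2792 ± 178), Fth1 (1051 ± 65.4), Hamp (987 ± 627), Hamp2 (132 ± 209), Tfr2 (119.5 ± 4.21), Slc40a1 (43.2 ± 3.91), Hfe (13.0 ± 0.634), Tfrc (4.99 ± 2.41) and Bmp6 (1.18 ± 0.165; SD, n = 3). Fth1 and Hamp did not differ beyond their spread, nor did Hamp2 and Tfr2. In knockout Ftl1 (5425 ± 1565) came before Trf (3878 ± 1411), also within the spread, and Tfrc (20.1 ± 6.50) was close to Hfe (21.2 ± 2.92). With merged exon lengths in place of transcript lengths Hamp came before Fth1 in both groups, and in knockout Hfe came before Slc40a1.

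The wider pathway was read through 8 lists with 97 genes in all, of which 93 were tested. Just 1 of the 93 passed the threshold over 6 libraries, Slc25a37, against 3.37% of all genes. Slc25a37 encodes mitoferrin-1, which brings iron into mitochondria. It was at 17.8, 20.9 and 18.8 CPM in knockout and 31.4, 40.7 and 44.5 CPM in WT, without overlap, and fell by 1.02 on the log2 scale (SE 0.159, adjusted p = 0.0301). The call was lost with any 1 of knockout 2, knockout 3, WT 2 or WT 3 left out (adjusted p from 0.0718 to 0.16). Slc25a28, of the same carrier family and list, was at 19.2, 33.1 and 26.3 CPM in knockout and 13.8, 14.9 and 15.3 CPM in WT. It was thus higher without overlap but did not pass (log2 fold change 0.84, SE 0.202, adjusted p = 0.0687). Unadjusted p-values under 0.05 were found for 45 of the 93 and for 3817 of 14539 genes.

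Among hepcidin inputs (18 genes, 17 tested), 0 passed in either direction, 14 had a negative log2 fold change and the median was -0.45. Bmp2, the other endothelial ligand, was at 7.63, 7.92 and 5.48 CPM in knockout and 15.8, 13.2 and 10.7 CPM in WT, its log2 fold change being -0.92 (SE 0.211, adjusted p = 0.064). The type I BMP receptor gene Acvr1 had a log2 fold change of -0.87 (adjusted p = 0.0525), and its groups did not overlap. In the Y libraries Bmp2 and Acvr1 both fell, with log2 fold changes of -0.84 and -0.84 (adjusted p = 0.0347 and 0.00815). That fit called 16.1% of 14546 genes as lower. The 10 endothelial markers, all with negative values, had a median log2 fold change of -0.75 over 6 libraries. Their part in the Bmp2 values was not tested. The hemojuvelin gene, listed under its older symbol Hfe2, was at 81.3 ± 11.1 CPM in knockout against 63.9 ± 0.437 CPM in WT (SD, n = 3; adjusted p = 0.168). Tmprss6, a protease that cuts hemojuvelin and lowers hepcidin, was at 371 ± 122 CPM in knockout against 534 ± 24.2 CPM in WT (adjusted p = 0.253). Creb3l3, a liver transcription factor known to act on the hepcidin gene, had 271, 99.7 and 112 CPM in knockout and 215, 274 and 281 CPM in WT, so that knockout 1 stood within the WT range (adjusted p = 0.319). In the Y libraries Creb3l3 fell by 1.39 on the log2 scale (adjusted p = 0.00213).

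Targets of BMP and SMAD signalling (7 genes) held 0 calls over 6 libraries, with a median log2 fold change of -0.19. Id3 was at 22.6, 48.7 and 47.5 CPM in knockout and 27.4, 13.7 and 23.8 CPM in WT (adjusted p = 0.185). Id1 was at 2.26, 2.88 and 2.14 CPM in knockout and 3.41, 1.37 and 1.37 CPM in WT (adjusted p = 0.735). Both genes, like Hamp, were higher in knockout 2 and 3 than in WT 2 and 3 and lower in knockout 1 than in WT 1. This order was not particular to BMP and SMAD targets, since Socs3, Ncoa4 and Alas1 of other lists had it too. The share of all tested genes with this order was not counted. Within the Y libraries Id3 rose by 1.36 and Id1 by 0.87 on the log2 scale (adjusted p = 0.0139 and 0.0495), and that fit called 3 of the 7 targets as higher and 1 as lower, beside 17.2% and 16.1% of all genes. Smad6, Smad7 and Atoh8, the other named targets, had log2 fold changes of -0.58, -0.19 and -0.56 over 6 libraries (adjusted p from 0.349 to 0.6). Smad7 was near 0 in the Y libraries, at 0.01.

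The interleukin-6 and STAT3 list (14 genes) had 0 calls, 9 members with a negative value and a median of -0.65. The 5 members with a positive value included Stat3 and Socs3. Stat3 was at 135 ± 23.5 CPM in knockout against 95.9 ± 1.31 CPM in WT (SD, n = 3). Its groups did not overlap, and its log2 fold change was 0.49 (adjusted p = 0.118). Socs3 was at 9.41 ± 5.81 CPM in knockout against 3.47 ± 1.11 CPM in WT (SD, n = 3). Its log2 fold change was 1.44 (adjusted p = 0.134), and its groups overlapped. Il6st, the signalling subunit of the interleukin-6 receptor, was at 113 ± 7.42 CPM in knockout against 175 ± 8.19 CPM in WT (SD, n = 3), its log2 fold change being -0.63 (SE 0.13, adjusted p = 0.0525). It fell in the Y libraries (adjusted p = 0.012). That fit called 8 of the 14 as lower and 3 as higher, beside 16.1% and 17.2% of all genes.

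Of 15 genes for uptake, reduction and plasma carriers 13 were tested and 0 passed, with 9 negative values and a median of -0.41. Hpx, the plasma protein that binds free heme, was at 4147, 9653 and 7521 CPM in knockout and 2983, 2680 and 2762 CPM in WT, without overlap. Its log2 fold change of 1.34 (SE 0.344) had an adjusted p-value of 0.0756. Ceruloplasmin (Cp), the plasma ferroxidase, moved the other way without overlap, at 618 ± 173 CPM in knockout against 1280 ± 150 CPM in WT (SD, n = 3; adjusted p = 0.0658). The importers Slc11a2 and Slc39a14 had log2 fold changes of -0.45 and 0.11 (adjusted p = 0.196 and 0.807).

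In the list for iron sensing and ferritin turnover (10 genes, 9 tested), Slc25a37 was the 1 call and the median was 0.05. The iron regulatory protein genes Ireb2 and Aco1, whose products bind the sites printed above, were lower in every knockout library than in every WT library. Ireb2 was at 84.7 ± 5.92 CPM in knockout against 128 ± 22.2 CPM in WT (adjusted p = 0.0853), and Aco1 was at 173 ± 30.2 and 235 ± 13.9 CPM (SD, n = 3; adjusted p = 0.173). Ncoa4, which delivers ferritin for breakdown, and Fbxl5, which marks iron regulatory protein 2 for degradation, had log2 fold changes of 0.37 and 0.11 (adjusted p = 0.428 and 0.706).

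Heme synthesis (8 genes), heme breakdown and transport (9 genes) and iron-sulfur cluster assembly (16 genes) had 0 calls each over 6 libraries. Alas1, the first enzyme of heme synthesis, was at 153, 583 and 546 CPM in knockout and 227, 95 and 88.2 CPM in WT. It was higher in both knockout Y libraries and lower in knockout 1 than in WT 1 (adjusted p = 0.141), and it rose by 2.62 on the log2 scale in the former (adjusted p = 0.000582). Alad, the second enzyme, had a log2 fold change of -0.70 (adjusted p = 0.0746). Hmox1, which opens the heme ring and frees its iron, was at 15.1, 29.8 and 27.6 CPM in knockout and 10.6, 10.6 and 11.2 CPM in WT, without overlap (log2 fold change 1.16, SE 0.251, adjusted p = 0.0566), and rose in the Y libraries (adjusted p = 0.00112). In the cluster assembly list 14 of 16 members had a positive value with a median of 0.36, and Hspa9, the mitochondrial chaperone that hands on new clusters, was the nearest to the threshold at 1.34 (SE 0.289, adjusted p = 0.0566).

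**Figure D5:**
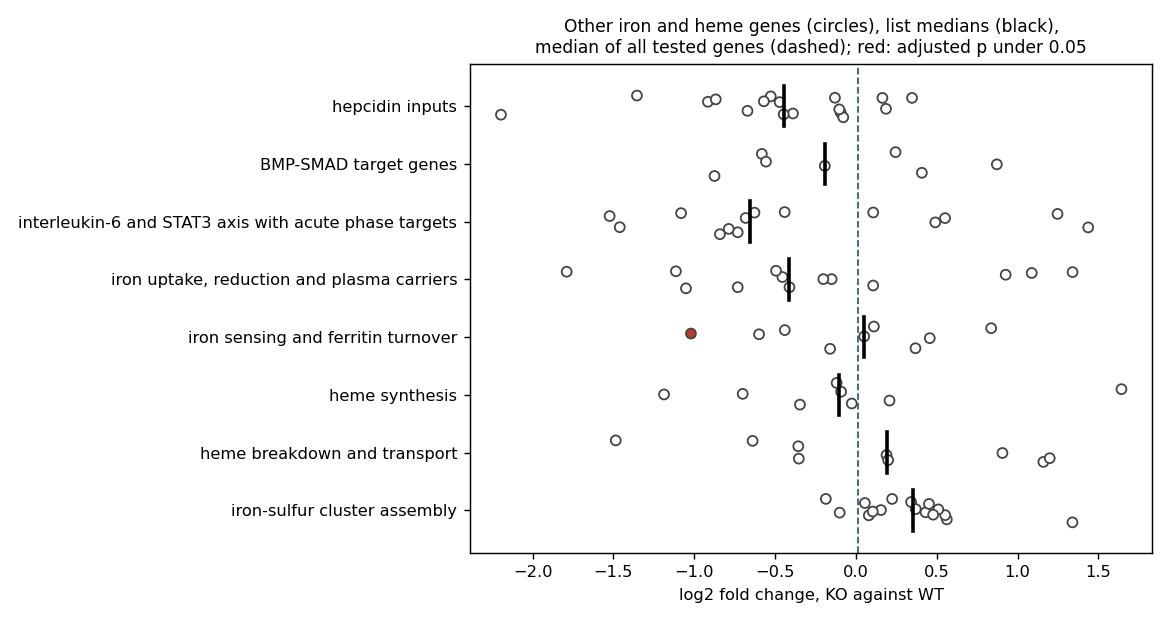
Log2 fold change of knockout against WT over 6 libraries (horizontal axis) for each tested gene of the 8 lists (circles, red where the adjusted p is under 0.05), with the list medians as black bars and the median of all 14539 genes, 0.01, as a dashed line. Slc25a37 is the only red circle, and the list medians run from -0.65 for the interleukin-6 and STAT3 list to 0.36 for iron-sulfur cluster assembly.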

How the data were processed

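Poly(A) RNA of 6 livers was sequenced with paired 76 nt reads, per the labels' protocols, from about 20 mg of tissue and 200 ng of RNA with an integrity number above 8. The authors deposited 1 table of expected counts (estimated reads per gene). The submitters' processing notes name bcl2fastq 2.17, cutadapt 1.18, STAR 2.7.0f and RSEM 1.3.1, and the build mm9. All 55450 versioned gene identifiers match GENCODE M21 for GRCm38, so positions are from that annotation. The use of strand is not given in the sources used here. All 6 columns were matched to samples by the labels (0 left over), and groups come from the titles.

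Counts were rounded, filtered with filterByExpr, scaled by TMM and tested with edgeR 4.0.16 in R 4.3.3 (glmQLFit, glmQLFTest, group as the only term), with Benjamini-Hochberg adjustment over 14539 genes. The SE is the log2 fold change divided by the square root of F. Ratios within a library type use an offset of 0.1 CPM, and log2 CPM a prior count of 2. The test was first tried on simulated data that held no library types, so that trial does not bear on the split by Xist counts. Each group has 3 mice, and 3 counts equal 0.0515 to 0.0641 CPM. Alternatives used DESeq2 1.42.0, limma 3.58.1, other scaling, no filter, a replicate block, the library type as a term, summed copies, and subsets. Named genes are the members, 18 preset genes, and the called or nearest gene of each list, with Socs3, Stat3 and Slc25a28 added outside this rule. The members and lists were chosen with earlier results of these data known.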

Additional observations from a re-analysis of the deposited data

Results flagged for a closer look

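For Hamp the difference between knockout and WT was of opposite sign in the Y libraries and in the Xist pair. The interaction of genotype with the presence of Xist or Y-linked counts was -2.80 on the log2 scale, with Hamp 2.42-fold higher in knockout among the Y libraries and at 0.348 of WT in the Xist pair. Its adjusted p-value was 0.0279 in edgeR and 2.53e-11 in DESeq2. Both p-values take their spread from the Y libraries and from values shared over all genes tested, since the Xist pair is 1 library of each group. They do not show a difference between kinds of mice. Knockout 1 also had the most Stk11 of its group (22.1 against 14.4 and 11.4 CPM) and correlated most with WT 1 across genes (r = 0.968).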

How the results depend on the processing

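Against 2 members called as higher over 6 libraries, 1 was called with DESeq2's size factors, without the low count filter and in limma voom, 4 in DESeq2 and 6 in the Y libraries. Leaving out 1 library gave 0 to 4 members as higher and 0 to 1 as lower, and 5 to 2372 genes as higher and 1 to 2101 as lower among all genes, where the 6-library counts were 313 and 177, or 380 and 131 with scaling by library size alone. Over all genes the counts of higher and lower were 485 and 286 without the filter, 1271 and 1019 in DESeq2, 779 and 725 with the library type as a term, and 2507 and 2340 in the Y libraries. The replicate block gave 79 and 26 genes and 1 member, Tfrc (adjusted p = 0.0368). Same-numbered libraries had deviations that correlated at 0.18, 0.04 and 0.07, and knockout 2 and 3 each correlated best with another number, so the block is not read as a pairing. The share of Hamp2, the summed ferritin and the ratio of Ftl1 to Fth1 moved by less than 1 SD in every alternative run, and the first ranged from -2.81 to 14.6 percentage points when 1 library was left out.

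Directions reversed for few genes. The ranges of log2 fold changes when 1 library was left out ran up to 0.95 for Hamp, 3.67 for Hamp2, 0.23 for Slc40a1, 0.31 for Slc39a14 and 0.29 for Fbxl5. Without knockout 2 the log2 fold change was -0.10 for Hamp and -0.24 for Slc40a1. That of Hamp2 was -1.03 without knockout 1, -0.34 without WT 2 and -0.34 without WT 3. Slc39a14 was at -0.045 without knockout 1, Fbxl5 at -0.012 without WT 3, and Smad7 at 0.012 in the Y libraries. Tfrc, Fth1, Ftl1, Hfe, Trf, Tfr2 and Bmp6 kept their direction in all alternatives. The cause of the changed counts was not tested. With 3 mice per group, of which 1 had Xist counts, the number of mice limits the precision.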
